A study of Mus musculus with 6 samples.

Results

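The early B-cell factor family of mouse has 4 genes, Ebf1, Ebf2, Ebf3 and Ebf4, and the members described here are all non-control array probes whose gene name in the files is one of these. They are 5 probes of the 55681 non-control probes on the array: 1 each for Ebf1, Ebf2 and Ebf3, and 2 for Ebf4. They carry 4 of the 36406 names given to those probes. The RNA came from mesenchymal cells of the E11.5 mouse forelimb autopod, the future hand. The cells came from C57BL/6 embryos with EGFP knocked into the Sox9 locus and were divided by cell sorting on EGFP into Sox9-EGFP positive cells (3 samples) and Sox9-EGFP negative cells (3 samples). Both groups carry the knock-in, and no treatment separates them. Each sample pooled about 10 autopods, and 1 array (Agilent, 1-colour) was run for each. The labels do not say whether the samples of a group came from separate embryos, litters or sorting runs, so spreads and p-values measure the variation between these samples, which may be technical. The 4 genes were taken up because of their difference between these same groups, and their values are therefore given as a description, without a test.

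EBF proteins are transcription factors that bind DNA as dimers through a zinc-containing domain of their own type, and they dimerise through a helix-loop-helix region. EBF1 commits lymphoid progenitors to the B-cell fate, EBF2 is known from brown fat precursors and from cells of the osteoblast lineage, EBF1 and EBF3 maintain stromal cells of the bone marrow, and members of the family act in olfactory and other neurons. In chick, Ebf1, Ebf2 and Ebf3 are transcribed in limb mesenchyme and other mesodermal tissues during development. Sox9, the gene that carries the reporter, encodes a factor that chondrocyte precursors need and is active in the condensing digit rays.

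Each value rests on 1 oligonucleotide of 60 bases, and the first 30 bases of 4 of the 5 probes are shown, 5′ to 3′, because they are what was measured. The transcripts named in the files are NM_007897 for Ebf1, NM_010095 for Ebf2, NM_010096 for Ebf3 and NM_001110513 for both Ebf4 probes, and the coordinates are those of the mm9 build in the files. Whether a probe lies in a coding exon or a UTR was not determined here.
Ebf1, chr11:44818438-44818497, plus strand: agggtgttggttaaagttgtaacccccgag
Ebf2, chr14:68048145-68048204, plus strand: ttggttgtgtttcttggactcttaagactc
Ebf3, chr7:144385490-144385549, minus strand: accgagagcttcactaaatggtagattttg
Ebf4, second probe, chr2:130187371-130187430, plus strand: attgactacggattccagaggctccagaaa
The longest run of bases that any of the 5 probes shared with another Ebf probe was 6 to 8 of the 60, so the 4 genes were read by unlike sequences. The GC content of the whole probes lay between 38.3% and 53.3%.

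All values are log2 signals relative to the 75th percentile of the same array, so that 0 is the level of that percentile, and differences are Sox9-EGFP positive minus Sox9-EGFP negative. Positive replicate 1 was the dimmest array, with a 75th percentile of 126 against 385 to 478 elsewhere and 24743 spots well above background against 29800 to 35277. A probe counts as measured where every array of a group, or of both, detected it well above background, which 26473 probes did. Over these probes, pairs of positive arrays correlated at 0.964 to 0.992, pairs of negative arrays at 0.984 to 0.993, and pairs across the groups at 0.941 to 0.970. Every slide carried a positive and a negative array, on 3 slides in all. Sox9 lay between 2.99 and 3.60 on the positive arrays and between -1.13 and -0.88 on the negative arrays, which checks the labels of the sort. No probe is named Gfp. Levels of different probes are not set against each other, because each oligonucleotide has its own brightness.

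Ebf2, Ebf1, Ebf3 and Ebf4 were all higher in the Sox9-EGFP positive cells, by 61.9-fold, 5.44-fold, 4.97-fold and 1.91-fold. Ebf2 had the 10th largest positive difference among the 26473 measured probes, Ebf1 the 210th, Ebf3 the 239th and Ebf4 the 1766th. All 4 genes passed an adjusted p of 0.05 in the limma fit, a call that 7.96% of all measured probes made in the positive direction and 21.6% in either. Since the genes were chosen on this contrast, nothing is read from this count, nor from the lack of overlap between the groups given below. Groups did not overlap for several uncalled genes either, among them Chd4, Tcf3 and Bnip3l. The share of all measured probes without overlap was not counted. In sorted bulk samples, fewer cells of a type and less RNA per cell cannot be told apart.

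Ebf2, the member tied to brown fat and osteoblast precursors, gave 1.42, 1.55 and 1.58 on the positive arrays and -4.02, -4.12 and -5.16 on the negative arrays. Every positive array was above every negative array, and the positive arrays were close together, within a range of 0.16, while the negative arrays spread over 1.14. The means were 1.52 ± 0.08 in positive cells and -4.43 ± 0.63 in negative cells (SD, n = 3 each), a log2 difference of 5.95 ± 0.32 (SE). Ebf2 was well above background on 3 of 3 positive arrays and on 2 of 3 negative arrays, and negative replicate 3, at -5.16, was the array on which it was not. The lowest signal that any probe well above background gave on the negative arrays was between -5.53 and -4.65, so the negative cells' Ebf2 values lay near the limit of detection. The difference was 3.88 ± 0.11 after a background correction by the normexp method with quantile normalization, and 3.76 ± 0.11 in the log2 values that the authors deposited in the series matrix. The log2 difference of Ebf2 was thus smaller in both of these sets of values, with the same direction. The 61.9-fold figure was not kept in either of them.

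Ebf1, the B-lineage commitment factor, gave 2.73, 3.05 and 3.35 on the positive arrays and 0.74, 0.65 and 0.42 on the negative arrays. The probe was detected on all 6 arrays, and the groups did not overlap. The means were 3.04 ± 0.31 in positive cells and 0.60 ± 0.17 in negative cells (SD, n = 3 each), and the log2 difference was 2.44 ± 0.20 (SE). Positive replicate 1, the dim array, was the lowest of the 3 positive arrays, and its gap of 1.99 to the highest negative array was larger than the ranges of 0.63 within the positive group and 0.32 within the negative group.

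Ebf3, which acts in neurons and, with Ebf1, in marrow stroma, gave 4.64, 4.54 and 4.80 on the positive arrays and 2.53, 2.46 and 2.05 on the negative arrays. Like Ebf1 it was detected on all 6 arrays without overlap of the groups. The means were 4.66 ± 0.13 in positive cells and 2.35 ± 0.26 in negative cells (SD, n = 3 each), and the log2 difference was 2.31 ± 0.17 (SE). Sox9-EGFP negative cells therefore held a clear Ebf3 and Ebf1 signal of their own, whereas that of Ebf2 was near background.

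Ebf4, the least studied member, gave -1.09, -1.37 and -0.73 on the positive arrays and -1.93, -1.82 and -2.24 on the negative arrays with its first probe, which was detected on all 6 arrays. The lowest positive array and the highest negative array were 0.45 apart. The means were -1.06 ± 0.32 in positive cells and -2.00 ± 0.22 in negative cells (SD, n = 3 each), and the log2 difference was 0.93 ± 0.21 (SE). This was the smallest of the 4 differences. The Ebf4 difference was 0.47 with normexp correction plus quantile scaling and 0.44 in the series matrix, and lay between 0.77 and 1.08 when each array was left out in turn.

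The second Ebf4 probe gave -4.43, -5.15 and -5.03 on the positive arrays and -5.45, -4.58 and -5.28 on the negative arrays. It was not well above background on any of the 6 arrays and was left out of the fit. The 2 probes are assigned to the same transcript, so the Ebf4 difference rests on 1 of its 2 probes. None of the 5 probes was saturated on any array.

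**Figure D1:**
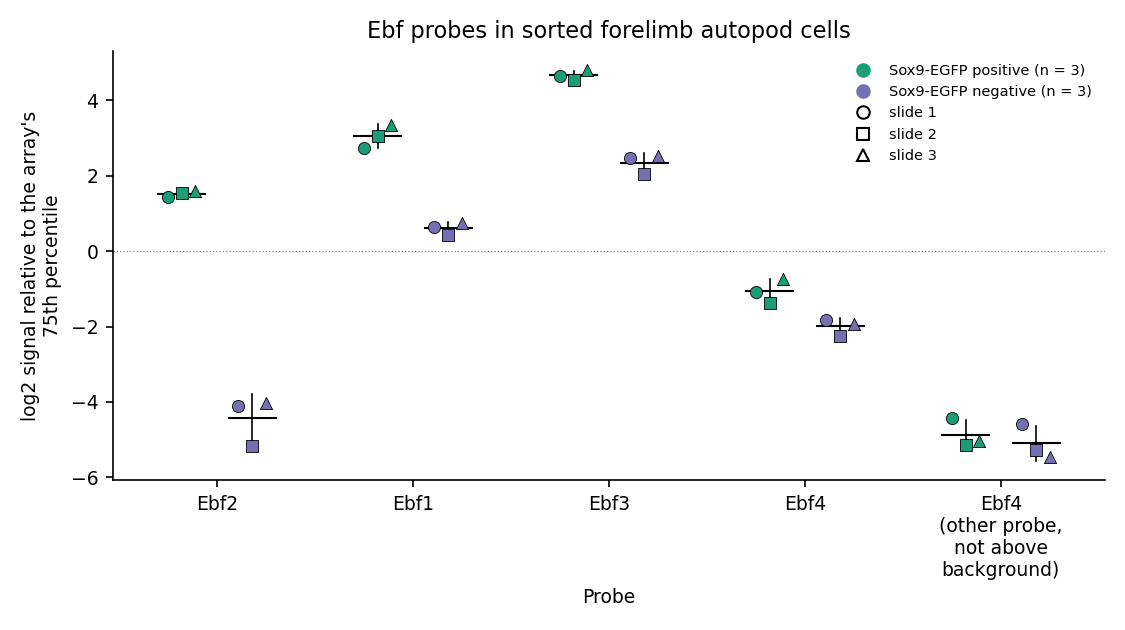
Log2 signal of the 5 Ebf probes relative to the 75th percentile of each array, with Sox9-EGFP positive cells (n = 3) left of Sox9-EGFP negative cells (n = 3) for each probe; symbols mark the slide, horizontal lines the mean and vertical lines the SD. The positive arrays lie above the negative arrays for Ebf2, Ebf1, Ebf3 and the first Ebf4 probe, and the groups overlap for the second Ebf4 probe, between -5.45 and -4.43.

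Within the slides, each a comparison of 1 positive with 1 negative array, the difference of Ebf2 was 5.54, 6.71 and 5.60 on slides 1, 2 and 3. Ebf1 differed by 2.07, 2.64 and 2.62 on the same slides. Ebf3 differed by 2.18, 2.50 and 2.26, and Ebf4 by 0.73, 0.87 and 1.19. As the groups did not overlap for any of the 4 genes, all 12 of these differences were bound to be positive, and they add no support. For Ebf1, Ebf2 and Ebf3 the largest one was on slide 2, which held negative replicate 3.

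The arrays of a group shared 1 extreme across members. Negative replicate 3 had the lowest value of the negative arrays for each of the 4 genes, and positive replicate 3 had the highest value of the positive arrays for each of them. Both held under each of the 5 scalings examined, which were the 75th percentile, the median, quantile normalization, normexp with quantile normalization, and the series matrix. On the 75th percentile scale Sox9 and Col9a2 had the same extremes, so these are not particular to the Ebf genes. The deviations of the 6 arrays from their group means correlated between members at 0.57 (Ebf1 and Ebf2, and Ebf2 and Ebf4) to 0.91 (Ebf2 and Ebf3). These correlations are over 6 arrays that share RNA, labelling and scaling, and they describe these arrays.

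**Figure D2:**
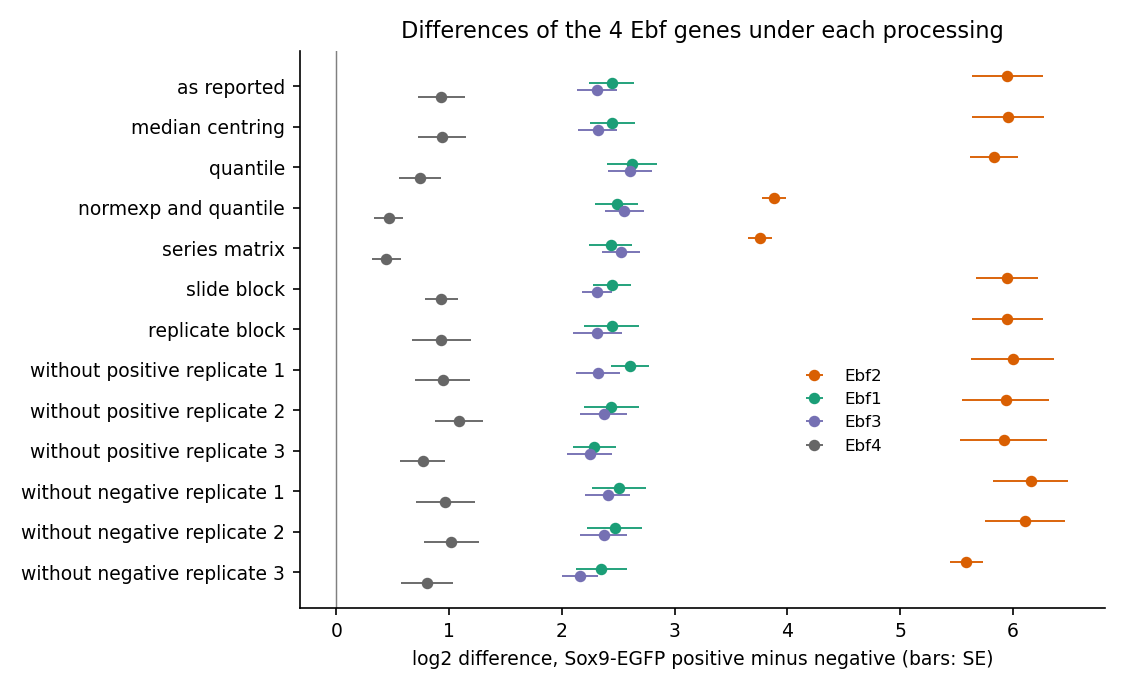
Log2 difference of each Ebf gene, Sox9-EGFP positive minus negative, with SE bars, under the processing reported, 6 alternatives and the omission of each array in turn. Ebf1 stays between 2.29 and 2.62 and Ebf3 between 2.16 and 2.60, Ebf2 is at 3.76 and 3.88 with the series matrix and normexp values against 5.95 as reported, and Ebf4 is lowest at 0.44 with the series matrix.

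The genes whose levels followed those of each Ebf gene most closely were found among 13193 named genes, by Pearson correlation of the log2 level over the 6 arrays. For Ebf1 these were Sobp, Klk4 and Fam71e1 (0.999, 0.999 and 0.998). Sobp and Fam71e1 differed by 1.20 and 1.25 on the log2 scale, and Klk4 was at least 6.88-fold higher, being not well above background on any negative array. For Ebf2 they were Cmtm5, Dact1, an antagonist of Dishevelled signalling, and Mgll, the monoacylglycerol lipase. Cmtm5 and Dact1 differed by 3.74 and 2.06, and Mgll, not well above background on any negative array, was at least 29.5-fold higher. For Ebf3 they were Synpo, an actin-associated protein, Atp9a and Rflna, with differences of 1.35, 1.51 and 6.09. For Ebf4 they were Dand5, a secreted inhibitor of the Nodal and BMP ligands, Pyroxd2 and Sult5a1 (0.997, 0.997 and 0.989), with differences of 0.77, 1.19 and 1.92. Pyroxd2 was well above background on 2 of 3 positive arrays. With 6 arrays in 2 groups, a correlation of this kind mostly follows the step between the groups: 256 genes correlated above 0.98 with Ebf1, 253 with Ebf2 and 259 with Ebf3, but 21 with Ebf4.

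The known partners of EBF proteins were mostly measured, and most were not called. Of 13 partners and co-regulators, 10 were measured, 1 was called higher in positive cells and 1 lower, and the median log2 difference was -0.27, beside -0.10 over all measured probes. Zfp521, a zinc-finger protein that binds EBF1 and inhibits it, was at 3.44 ± 0.26 in positive cells and 2.61 ± 0.07 in negative cells, higher by 0.83 ± 0.17 (SE; adjusted p = 0.0192, limma). Its relative Zfp423 differed by -0.22 ± 0.14 and was not called. Smarca4, the ATPase of the BAF chromatin remodelling complex, fell by 0.46 ± 0.12 (adjusted p = 0.0405, limma). Zfp521 was no longer called without any 1 of the negative replicates (adjusted p = 0.0519 to 0.0824, limma), and Smarca4 without any 1 of the arrays other than positive replicate 1 (0.0697 to 0.146, limma). The Smarca4 call was also lost with the slide as a block (adjusted p = 0.0605, limma), with the mean of its probes (0.197), and in the series matrix, normexp and quantile values (0.363 to 0.506), where the difference was -0.21, -0.17 and -0.16. The B-cell factors Pax5, Spi1 and Ikzf1 were not measured in either group.

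Of 13 B-lineage genes tied to EBF1, 5 were measured, 1 was higher and none was lower, with a median of 0.24. Vpreb1, a part of the surrogate light chain, gave 0.33, -0.14 and -0.07 in positive cells and -1.24, -1.20 and -1.27 in negative cells. Vpreb1 was higher by 1.28 ± 0.16 (adjusted p = 0.00547, limma), and the call was kept under each alternative. Cd79a, an Ebf1 target in B cells, differed by 0.24 ± 0.27 and Foxo1 by 0.02 ± 0.12, and neither was called. The other 8 genes, among them Pax5, Rag1, Rag2 and Igll1, were not well above background on all 3 arrays of either group. The leukocyte markers Ptprc and Lyz2 were likewise not measured.

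Of 11 olfactory genes with EBF sites and neuronal genes, 8 were measured, 3 were higher and none was lower, with a median of 0.02. Gnal, the olfactory G protein subunit, was higher by 0.91 ± 0.11 (adjusted p = 0.00552, limma). Dcx, a microtubule protein of young neurons, was higher by 0.96 ± 0.24 (adjusted p = 0.0394, limma), and Stmn2 by 0.92 ± 0.25 (adjusted p = 0.0451, limma). The Dcx call was lost without any 1 of the negative replicates or positive replicate 3 (adjusted p = 0.0910 to 0.135, limma), and the Stmn2 call also without positive replicate 2 (0.111 to 0.124, limma). Quantile normalization ended both calls (adjusted p = 0.0627 for Dcx and 0.0647 for Stmn2, limma), normexp with quantile normalization ended that of Dcx (0.0505, limma), and the mean of its probes gave Dcx a difference of 1.54. Gnal kept its call in the normexp and series matrix values, with differences of 0.60 and 0.57. Omp and Tubb3, the markers of mature olfactory neurons and of neurons in general, differed by -0.16 ± 0.20 and -0.0034 ± 0.16.

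Of 11 fat cell genes tied to EBF1 and EBF2, 6 were measured, 1 was higher and none was lower, with a median of -0.04. Prdm16, the co-regulator of brown fat fate, was at 3.45 ± 0.09 in positive cells and 2.83 ± 0.03 in negative cells, higher by 0.62 ± 0.12 (adjusted p = 0.0168, limma). That call was lost without any 1 of the arrays other than positive replicate 1 (adjusted p = 0.0512 to 0.0728, limma). Pparg, the master factor of fat cells, differed by 0.55 ± 0.48, Cebpa by -0.72 ± 0.21 and Cebpb by -0.77 ± 0.22, and none of these was called. Ucp1, Fabp4, Adipoq, Plin1 and Lipe were not measured.

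Of 10 bone marrow stroma genes tied to EBF1 and EBF3, 9 were measured, 3 were higher and 3 were lower, with a median of -0.06. Foxc1, a forkhead factor of skeletal and stromal precursors, gave 3.62, 2.96 and 3.35 in positive cells and -3.68, -3.78 and -5.02 in negative cells, where it was well above background on 2 of 3 arrays. Its difference was 7.47 ± 0.40 (adjusted p = 0.000553, limma). Cxcl12, the chemokine that holds blood progenitors in the marrow, was at 5.21 ± 0.31 in positive cells and -0.79 ± 0.33 in negative cells, higher by 6.00 ± 0.24 (adjusted p = 0.000402, limma). Both had been seen among the largest differences of these data before the list was written, so the list is no independent evidence of its direction.

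Pdgfra, a receptor of mesenchymal cells, was also higher, by 0.79 ± 0.13 (adjusted p = 0.0121, limma). Vcam1, an adhesion molecule, fell by 0.88 ± 0.11 (adjusted p = 0.00576, limma), and Csf1, the macrophage growth factor, by 0.87 ± 0.15 (adjusted p = 0.0121, limma). Of the 2 measured Vcam1 probes, the dimmer one differed by -0.34. Kitl, the ligand of Kit, was not well above background on any positive array and was at least 2.39-fold lower there (adjusted p = 0.0133, limma), with measured means of -5.90 ± 1.02 in positive cells and -3.08 ± 0.19 in negative cells. The calls of Pdgfra and Kitl were lost without negative replicate 1 or negative replicate 3 (adjusted p = 0.0523 to 0.0606, limma), and that of Csf1 without negative replicate 3 (0.0572, limma). In the normexp, quantile and series matrix values Vcam1 differed by -0.55, -0.58 and -0.57, and Kitl differed by -0.78 with normexp and -0.79 in the series matrix, less than its bound here. Lepr, the receptor that marks marrow stroma, differed by 0.44 ± 0.66 and Prrx1 by -0.06 ± 0.39, and neither was called.

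Of 10 osteoblast and osteoclast regulators tied to EBF2, 7 were measured, 1 was higher and 4 were lower, with a median of -1.10, or -0.74 with bounds in place of fitted values. Spp1, which encodes osteopontin, was higher by 4.22 ± 0.75 (adjusted p = 0.0142, limma) and was well above background on 1 of 3 negative arrays. The Spp1 difference was 1.40 with normexp and quantile normalization and 1.38 in the series matrix. Dlx5, a homeobox factor of osteoblasts and of the limb ectoderm, was at -2.21 ± 0.71 in positive cells and 0.22 ± 0.29 in negative cells and fell by 2.43 ± 0.37 (adjusted p = 0.00924, limma). Alpl, the bone alkaline phosphatase, fell by 1.87 ± 0.24 (adjusted p = 0.00538, limma); it was well above background on 1 of 3 positive arrays, and its difference was -0.73 in both the normexp and the series matrix values. Atf4 fell by 0.74 ± 0.15 (adjusted p = 0.0189, limma). Tnfrsf11b, which encodes osteoprotegerin and is an Ebf2 target in osteoblasts, was not well above background on any positive array and was at least 1.03-fold lower there (adjusted p = 0.0289, limma). Its means were -5.30 ± 0.45 in positive cells and -4.20 ± 0.19 in negative cells. The Spp1 call was lost without negative replicate 1 or positive replicate 3 (adjusted p = 0.0597 to 0.0602, limma), that of Atf4 without either of these or negative replicate 3 (0.0698 to 0.0820, limma), and that of Tnfrsf11b without any 1 of the negative replicates or positive replicate 3 (0.0587 to 0.108, limma). Atf4 was also not called with the mean of its probes or in the normexp, quantile and series matrix values (adjusted p = 0.0762 to 0.114, limma), the last 3 of which gave differences of -0.42, -0.42 and -0.43. Tnfrsf11b was not called with trend and robust moderation (adjusted p = 0.0706, limma) or in the normexp and series matrix values (0.119 and 0.116, limma), which gave differences of -0.27 and -0.28, and quantile normalization gave -1.78. Runx2 and Sp7, the osteoblast factors, differed by -1.16 ± 0.59 and 0.64 ± 0.19 and were not called. Of the 3 positive arrays, Runx2 was well above background on 1 and Sp7 on 2.

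Over the 6 lists, 67 distinct genes were listed, 45 were measured, 10 were higher and 8 were lower in positive cells. The called share was 40.0%, beside 26.7% of all 13197 named genes (8.52% higher and 18.2% lower), and the median of the lists was -0.16. These lists were written with earlier results of the same arrays known, and the shares are given as counts without a test. The number called was 8 without negative replicate 1, 8 without negative replicate 3 and 11 without positive replicate 3, against 18 with all arrays, and it was 5 with no filter on background.

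**Figure D3:**
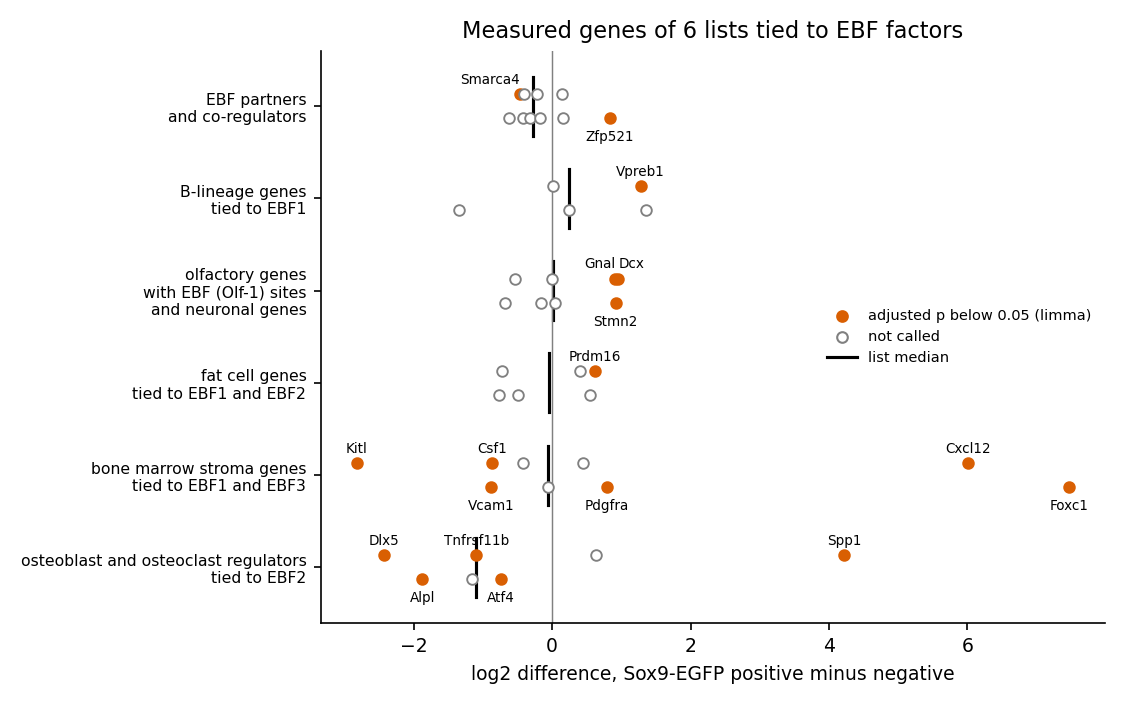
Log2 difference, Sox9-EGFP positive minus negative, of each measured gene in the 6 lists tied to EBF factors; filled points passed an adjusted p of 0.05 in limma and are named, open points did not, and black bars are list medians. Foxc1 at 7.47, Cxcl12 at 6.00 and Spp1 at 4.22 lie far to the right of the other genes, although Spp1 is at 1.38 in the series matrix, and list medians run from -1.10 to 0.24.

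Markers of the cell types that the sort could hold were summed as linear signals relative to the 75th percentile. The cartilage condensation list, 7 of 7 measured and 6 higher, summed to 308 to 341 on the positive arrays and 66.1 to 90.9 on the negative arrays, with Col2a1, the cartilage collagen, higher by 5.19 ± 0.21 and Sox5 differing by 0.32 ± 0.28. The limb mesenchyme list, 5 of 5 measured with 1 higher and 3 lower, summed to 52.6 to 66.2 on the positive arrays and 161 to 171 on the negative arrays. Prrx2 fell by 1.93 ± 0.12 and Msx1 by 4.56 ± 0.47. Pdgfra of the same list was higher by 0.79 ± 0.13, and Prrx1 differed by -0.06 ± 0.39 and was not called. The part of these cell types in the Ebf differences was not tested.

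Among nerve and glia markers, Stmn2 is given above, and Sox10, the neural crest factor, was at -2.25 ± 0.54 in positive cells and -3.95 ± 0.73 in negative cells, where 1 of 3 arrays showed it well above background, and was higher by 1.70 ± 0.44 (adjusted p = 0.0405, limma). Tubb3 and Elavl3, markers of neurons, differed by -0.0034 ± 0.16 and 0.04 ± 0.24 and were not called. Ectoderm markers, 4 of 6 measured with 1 higher, summed to 21.9 to 36.4 on the positive arrays and 9.05 to 11.4 on the negative arrays. Krt18 was higher by 2.59 ± 0.13, Trp63 differed by 1.01 ± 0.30 without a call, and Krt5 and Cdh1 were not measured. Epcam and Krt14 differed by -0.43 ± 0.23 and -0.03 ± 0.28 and were not called, so the higher sums rest on Krt18 and Trp63. Muscle precursor markers, 5 of 7 measured with 3 lower, summed to 0.128 to 0.216 on the positive arrays and 0.623 to 1.51 on the negative arrays, led by Lbx1, which was well above background on 1 of 3 positive arrays and fell by 3.60 ± 0.40, and Pax3, which was not well above background on any positive array and was at least 5.05-fold lower there. The part of these cells in the Ebf differences was not tested either.

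The groups overlapped for the remaining marker lists, none of whose genes was called. Leukocyte markers, 3 of 6 measured and led by Itgam and Csf1r, summed to 8.06 to 26.8 on the positive arrays and 3.73 to 18.5 on the negative arrays. Endothelial markers, 2 of 6 measured (Kdr and Pecam1), summed to 2.75 to 7.84 on the positive arrays and 1.85 to 4.69 on the negative arrays. Red blood cell markers, 3 of 5 measured and led by Hbb-y and Hba-a1, summed to 1.77 to 4.23 on the positive arrays and 1.99 to 33.7 on the negative arrays.

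Within 500 kb of the Ebf probes on mm9, 106 further probes stand for 62 genes or unnamed features, of which 41 were measured, 2 were called higher, 7 were called lower and the median log2 difference was -0.22. These 9 calls are close to the share of all measured probes (21.6% called, with a median of -0.10). The only measured neighbour of Ebf1 was Rnf145, with a difference of -0.41 ± 0.19 and no call. None of the 9 measured neighbours of Ebf2 was called higher, and Ppp2r2a, a phosphatase subunit, fell by 0.59 ± 0.16 (adjusted p = 0.0454, limma). The Ppp2r2a call was lost without any 1 of the 6 arrays (adjusted p = 0.0541 to 0.143, limma) and in the normexp, quantile and series matrix values (-0.30, -0.27 and -0.32, with adjusted p = 0.169 to 0.323, limma). The nearest named genes on each side of Ebf2 were Gm6878, which was not measured, and Cdca2, at -0.36 ± 0.27 and not called.

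Near Ebf3, 10 features were measured, 1 was higher and 3 were lower. The higher one was the probe A_55_P2294074, to which the files give no gene, at chr7:144478479-144478538 on the minus strand, the strand of Ebf3, and 92.9 kb from the Ebf3 probe. Its first 30 bases are shown because no gene name stands for it.
Unnamed probe near Ebf3: atcaagtaatcctgattagcaatctcactg
It gave 0.89, 1.79 and 2.14 on the positive arrays and -1.86, -1.47 and -1.70 on the negative arrays, detected on each of them. All 3 positive arrays lay above all 3 negative arrays, with a difference of 3.28 ± 0.33 (adjusted p = 0.00279, limma) that was 3.01 to 3.64 when each array was left out in turn and was called each time. RefSeq gives Ebf3 a length of 129 kb in a later build, and whether this probe lies inside the gene was not tested here. Mgmt, a DNA repair gene and the nearest named gene on one side, differed by 0.46 ± 0.13 and was not called. On the other side, 9430038I01Rik fell by 0.67 ± 0.15 (adjusted p = 0.0278, limma). The other features called lower were 2 probes for intergenic transcripts, 1 at the coordinates of the 9430038I01Rik probe and 1 within 0.2 kb of it, so these 3 calls are of 1 place. All 3 calls were lost without negative replicate 1, negative replicate 3, positive replicate 2 or positive replicate 3 (adjusted p = 0.0582 to 0.109, limma), and in the normexp, quantile and series matrix values (0.0638 to 0.148, limma).

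Near Ebf4, 21 features were measured, 1 was higher and 3 were lower. Nop56, a nucleolar protein of ribosome assembly, was at 5.05 ± 0.24 in positive cells and 6.23 ± 0.05 in negative cells and fell by 1.18 ± 0.16 (adjusted p = 0.00637, limma). Mrps26, a mitochondrial ribosomal protein, fell by 0.86 ± 0.12 (adjusted p = 0.00655, limma), and Fastkd5 by 0.71 ± 0.15 (adjusted p = 0.0214, limma). The higher one was an unnamed probe at 499 kb, with a difference of 0.61 ± 0.13 (adjusted p = 0.0251, limma). Idh3b and Cpxm1, the nearest genes on each side, differed by -0.08 ± 0.21 and 0.39 ± 0.21 and were not called. The call of Fastkd5 was lost without negative replicate 1, negative replicate 3, positive replicate 2 or positive replicate 3 (adjusted p = 0.0543 to 0.0838, limma), and that of the unnamed probe without any 1 of the arrays other than positive replicate 1 (0.0613 to 0.101, limma). Quantile normalization ended the call of Fastkd5 (adjusted p = 0.0607, limma), and the quantile, normexp and series matrix values that of the unnamed probe (0.0849 to 0.121, limma). Mrps26 kept its call in these values, with differences of -0.49, -0.52 and -0.53. Over the 4 windows, 3 features were called without each of negative replicate 1, negative replicate 3 and positive replicate 3, and 4 without positive replicate 2, against 9 with all arrays.

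**Figure D4:**
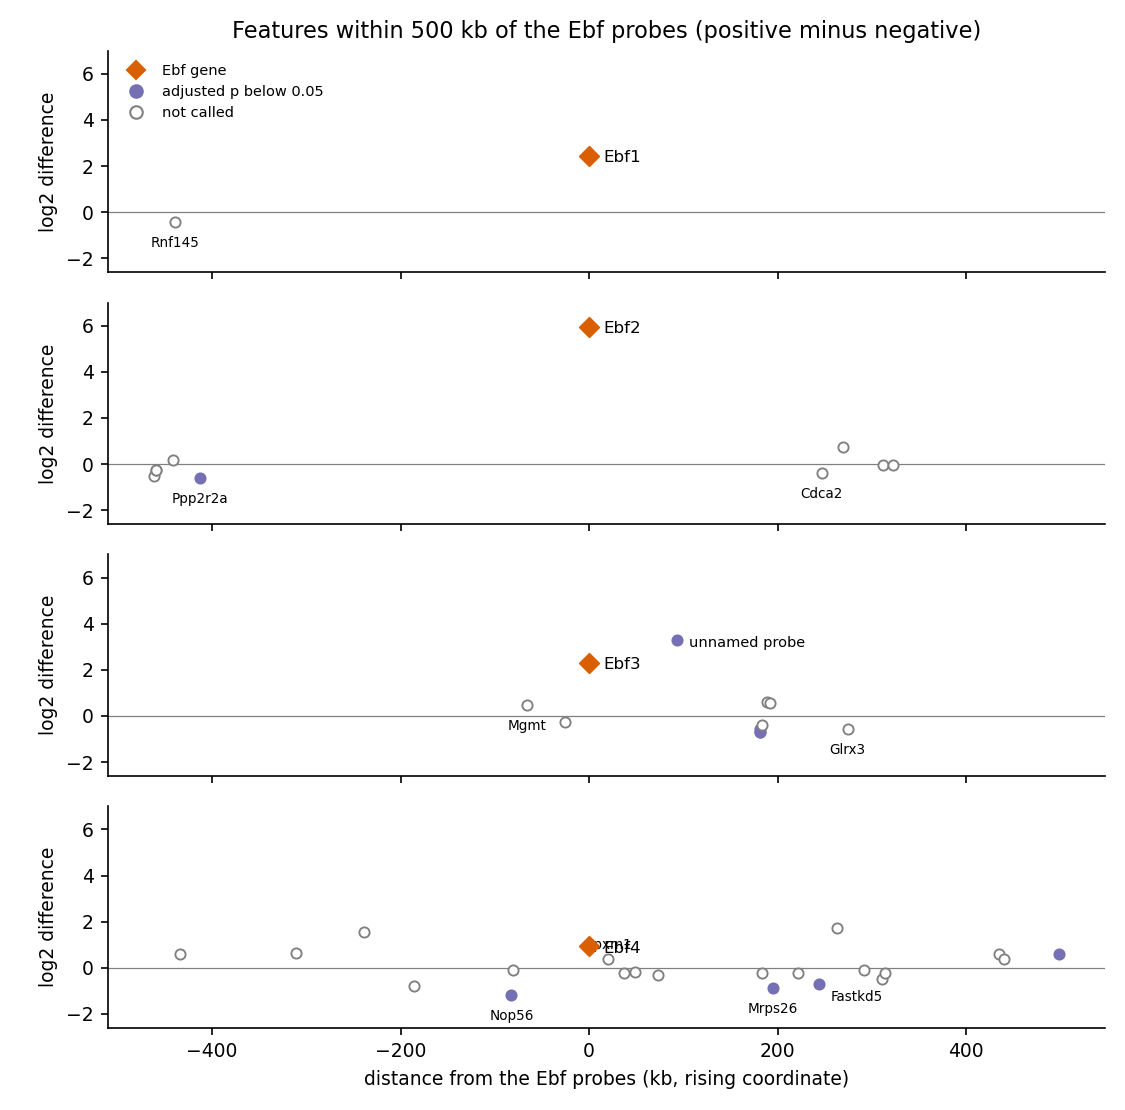
Log2 difference, Sox9-EGFP positive minus negative, of measured features against their distance in kb from the Ebf probe of each window, in the direction of rising coordinates; diamonds are the Ebf genes, filled circles passed an adjusted p of 0.05 in limma and open circles did not. Around Ebf2 all neighbours lie between -0.59 and 0.73 while Ebf2 is at 5.95, and the unnamed probe near Ebf3 lies at 3.28.

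RefSeq promoter windows of 250 bases before to 50 bases after the start (GRCm38.p6) were matched for Ebf1 (2 starts), Ebf3 and Ebf4. The EBF palindrome TCCCNNGGGA, searched on both strands, was in 0 of these 4 windows and in 297 of all 32851 windows (0.904%). Its inner part CCCNNGGG, which every full palindrome contains, was in 1 of the 4 windows, that of Ebf3, and in 13.7% of all windows. The SOX-type motif ACAATG was in 0 of the 4 windows and in 12.6% of all. Among 68 windows of 51 genes of the 6 lists, the full palindrome was in 1, that of Foxo1, and the inner part in 9. A match of letters is a description and is not evidence of binding.

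The window of Ebf3 is shown because it holds that inner part, in capitals, as CCCGGGGG, beginning 21 bases before the start. The 250 bases, on the minus strand at chr7:137314446-137314695 of GRCm38.p6, have a GC content of 80.0%, and the GC content of the whole windows was 36.7% and 53.0% for Ebf1, 77.0% for Ebf3 and 74.3% for Ebf4.
Ebf3 promoter: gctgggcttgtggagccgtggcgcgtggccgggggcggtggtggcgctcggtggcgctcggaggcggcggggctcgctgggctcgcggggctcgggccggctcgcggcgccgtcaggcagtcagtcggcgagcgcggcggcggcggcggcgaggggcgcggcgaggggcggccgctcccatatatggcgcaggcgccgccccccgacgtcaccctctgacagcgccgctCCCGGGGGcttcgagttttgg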

How the data were processed

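Per the file headers, the authors extracted the intensity of every spot with Feature Extraction 10.7.3.1, background subtraction included, and did no scaling across arrays. The authors also deposited log2 values in a series matrix whose columns share a median of 6.41 (background step not stated). Probe coordinates are mm9.

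From the intensities, the 75th percentile over 59305 non-control spots was subtracted on the log2 scale, array by array, and replicate spots were averaged. Probes were kept if every array of a group, or of both, showed them well above background (26473 of 55681, after leaving out 17 for outlier spots). The brightest kept probe stood for a gene. The main test was limma 3.58.1 (R 4.3.3), adjusted by Benjamini-Hochberg over all kept probes. The smallest exact p for 3 against 3 arrays is 0.1, so calls rest on the variance shared between probes. Where a gene was at or below background on a whole group, its bound was taken against the lowest well-detected signal. That signal is the lowest of any detected probe on an array and is not a detection limit. The bounds hold on the 75th percentile scale only, and that of Kitl was not kept in the normexp and series matrix values. Those of Klk4, Mgll and Pax3 were not examined there. Probes were named through RefSeq accessions (26300), symbols (2044) or synonyms (355), and 26982 kept the files' name. The number of arrays limits the precision.

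Named are every Ebf probe, up to 4 called genes by adjusted p per list and window, nearest neighbours, the 3 genes most like each member, and the 2 brightest genes per marker list. Csf1, Kitl, Tnfrsf11b and the uncalled list genes were named after their values were seen. The members and lists were chosen with earlier results of these data known. Alternatives were normexp (offset 50) with quantile normalization, quantile normalization, median centring, the series matrix, no filter, detection required on all 6 arrays, averaged probes, trend and robust moderation, slide and replicate blocks, and leaving out each array. The labels do not say whether equal replicate numbers mark paired samples. Deviations of same-numbered arrays correlated at -0.27, -0.46 and 0.28, and those of arrays on the same slide at 0.56, 0.41 and 0.24. Same-numbered arrays lay on different slides, so these correlations cannot show whether the samples were paired. Some marker genes and 1 probe sequence are not reported here.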

Additional observations from a re-analysis of the deposited data

How the results depend on the processing

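For the Ebf genes, chosen on this contrast, only values are given and the limma threshold is no test. All differences of Ebf1, Ebf2 and Ebf3 stayed positive under each alternative that gave a value. Ebf2 had none under the filter on all 6 arrays. The blocks, the filters, averaged probes and the moderation left these differences unchanged by design. As the groups did not overlap, leaving out 1 array could not turn their sign. Only the rescaled values could have done so. Ebf4 was past the threshold as reported and not past it with no filter (0.93), after normexp and quantile normalization (0.47), after quantile normalization (0.75), in the series matrix (0.44) or with the replicate block (0.93). It was also not past it without any 1 of the negative replicates or without positive replicate 3. The Ebf4 difference was 0.77 to 1.08 with arrays left out in turn. The number of all probes called, 5731, was 1350 with no filter, 3796 after quantile normalization, 1370 with the replicate block and 2027 to 6449 with arrays left out: 2027 without negative replicate 1, 3496 without negative replicate 2, 2036 without negative replicate 3, 3599 without positive replicate 2 and 2363 without positive replicate 3. The list genes called, 18, were 5 with no filter, 7 with the replicate block and 8 to 22 with arrays left out. The features called near the Ebf genes, 9, were 2 with no filter, 5 after quantile normalization, 1 with the replicate block, 14 with the slide block and 3 to 11 with arrays left out. No Ebf gene and no named list or window gene changed the sign of its difference under these alternatives. For the named list and window genes together with Sox9, 308 values kept their call and 135 lost it, none of the lost ones being of Sox9. Whether equal replicate numbers mark pairs was not settled. The blocked values say nothing of effect size, because the blocks leave the differences unchanged by design. Of the called probes 36.8% were higher as reported, 64.0% with no filter and 52.8% with the replicate block, so the larger direction changed there; the median difference of all probes was 0.34 with no filter, against -0.10. The causes of these changes were not tested. Signals near background limit Ebf2 in negative cells and the second Ebf4 probe.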
